A study of Homo sapiens with 6 samples.

Results

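TFIIA, TFIIB and TBP are the general factors that recognise the core promoter, and their transcripts were followed in PC-9 cells after knockdown of the splicing regulator RBM10. The genes are GTF2A1 and GTF2A2, which encode the large and small chains of TFIIA, GTF2B, which encodes TFIIB, and TBP, which encodes the TATA-binding protein. They make up 4 of the 26334 genes and 7 of the 51398 isoforms in the quantification, and each isoform whose gene name is one of these was taken. GTF2A1 was chosen by its isoform NM_201595, which received no counts in either control library and many in every knockdown library, so the GTF2A1 isoform values and gene total are given as a description without a test. The other 3 genes were chosen by their role beside TFIIA, and their totals were tested.

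The PC-9 line derives from a lung adenocarcinoma and carries a deletion in EGFR. Cells in RPMI with serum, without drug, received the scrambled shRNA shScr or one that targets RBM10, shRBM10#1 or shRBM10#2. Total RNA of each of the 3 conditions was sequenced as 2 libraries. All comparisons with shScr share the same 2 control libraries. The labels do not say whether the libraries of a condition came from separate cultures, so p-values measure the spread between these libraries, which may be technical.

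At a promoter, TBP bends the DNA, TFIIA clasps TBP and holds it there, and TFIIB bridges TBP to RNA polymerase II and helps to place the start site. TBP works within TFIID at RNA polymerase II promoters and within other complexes at the promoters of RNA polymerases I and III. The product of GTF2A1 is a precursor that the protease Taspase 1, encoded by TASP1, cuts into an alpha and a beta chain, while the GTF2A2 product is the gamma chain. NC2, made of DR1 and DRAP1, competes with TFIIA and TFIIB for TBP on DNA, and BTAF1 removes TBP from DNA.

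RBM10, the targeted gene, had totals of 83.2 and 86.2 CPM in shScr, 59.8 and 56.4 in shRBM10#1, and 27.2 and 26.9 in shRBM10#2. The 3 conditions did not overlap, and the knockdown was deeper with shRBM10#2. CPM here are counts set to a common library size, with the TMM correction for library composition. Against shScr, RBM10 fell by 0.54 ± 0.067 (SE) on the log2 scale with shRBM10#1 (edgeR FDR = 0.000228) and fell by 1.65 ± 0.070 with shRBM10#2 (edgeR FDR = 5.1e-08). The libraries held 31953729 to 37557507 expected counts. Fragments averaged 231 nt in shScr replicate 2 and 265 to 281 nt in the other libraries, and the part of this difference in the levels below was not tested. Epithelial markers were abundant, with EPCAM at 379 to 455 TPM, whereas the lung lineage genes NKX2-1, SFTPB and NAPSA summed to no more than 0.82 TPM, so a lung origin could not be read from these markers. The 4 leukocyte markers summed to 77 to 116.6 TPM, nearly all from CD68, a lysosomal protein found beyond leukocytes. CD68 was at 99.5 and 116.5 TPM in shScr and at most 81.7 in the knockdown libraries, while PTPRC, which defines leukocytes, reached at most 0.05 TPM. Endothelial markers summed to 6.02 to 12.7 TPM, mainly from CDH5, and fibroblast markers to 2.01 to 2.9 TPM. CDH5 was at 4.65 and 6.16 TPM in shScr, 8.45 and 10.9 in shRBM10#1, and 6.08 and 5.64 in shRBM10#2. The part of these differences in the results below was not tested.

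GTF2A1 lies on the minus strand of chromosome 14 (GRCh38, 81175452 to 81221390). The reads were quantified on hg19, and positions here come from RefSeq and GENCODE 29 on GRCh38. In GENCODE, the transcript matched to NM_201595 begins with an 84-nt noncoding exon at chr14:81221148-81221231. The major isoform, NM_015859, begins downstream in another first exon at chr14:81220489-81220922, and a longer form of this exon reaches 81220952 and spans 464 nt. Both splice to the same second exon at chr14:81216413-81216514, which is coding in NM_015859. In the quantification NM_015859 was 6336 nt and NM_201595 was 5956 nt long, and the difference of 380 nt equals that between the 464-nt and the 84-nt first exon. GENCODE ties NM_001278940 to the same transcript as NM_201595, so the 84-nt exon was assigned to NM_201595 by this length match. The third isoform, NM_001278940, was 67 nt longer than NM_015859. A 67-nt extra exon lies at chr14:81209870-81209936 in another GENCODE transcript of the gene, and the length was the only link between them. The antisense RNA gene AL136040.1 overlaps 14 nt of GTF2A1 exons, and its reads cannot be told apart without strand.

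**Figure D1:**
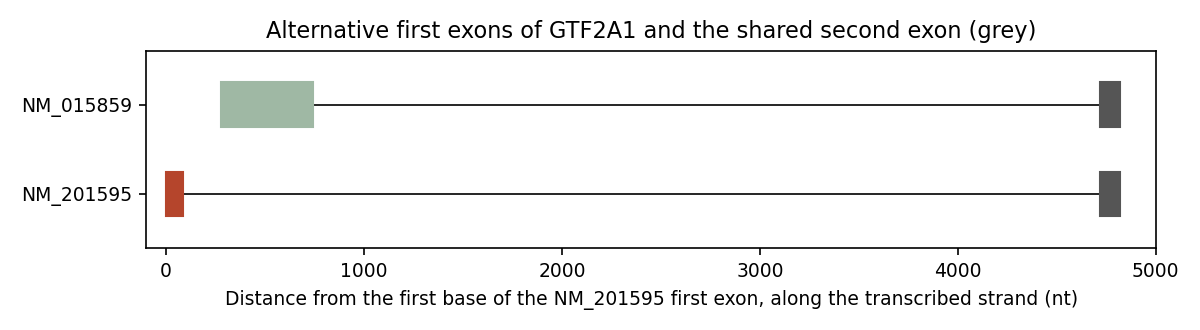
First exons of the GTF2A1 isoforms NM_015859 (green) and NM_201595 (red) and the second exon they share (grey), to scale, with distance in nt from the first base of the NM_201595 first exon on the x axis. The NM_015859 first exon starts 279 nt downstream of the other, and lines are introns.

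The 2 first exons set both the leader and the start codon. The junctions that tell the isoforms apart are shown with the last 15 bases of the first exon in capitals and the first 15 bases of the shared second exon in lower case.
NM_015859: AATACAAACACCGTGcctaaattatacaga
NM_201595: GAGCGTTGGAGAGGCcctaaattatacaga

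The start of the NM_015859 reading frame, from 81220518 to 81220489 in the first exon and from 81216514 to 81216413 in the second, is shown next because NM_201595 lacks its first 30 bases. The capitals mark the ATG where NM_015859 begins and, from base 118, the ATG where GENCODE begins the reading frame of the transcript matched to NM_201595.
NM_015859 coding start: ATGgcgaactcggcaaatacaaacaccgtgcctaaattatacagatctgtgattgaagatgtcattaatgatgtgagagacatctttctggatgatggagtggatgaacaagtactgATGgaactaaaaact
The second ATG is in the same frame and leaves out 39 codons, so the annotated NM_201595 product lacks the start of the TFIIA alpha chain. Proteins were not measured.

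In neither shScr library was any read assigned to NM_201595. Its expected counts were 330.17 and 483.42 in shRBM10#1 and 812.5 and 1078.08 in shRBM10#2. Every knockdown library was above both controls, and both shRBM10#2 libraries were above both shRBM10#1 libraries. Set against a floor of 3 counts per shScr library, the mean level was 127-fold higher in shRBM10#1 and 279.7-fold higher in shRBM10#2. These folds are not lower bounds, because the floor treats every count as informative although few fragments tell the isoforms apart. The NM_201595 counts chose the isoform and carry no test.

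As a share of the GTF2A1 counts, NM_201595 took 16.3% and 21.2% with shRBM10#1, and with shRBM10#2 it took 29.5% and 37.6%. The mean shares were 18.7% ± 3.5 (SD, n = 2) and 33.6% ± 5.8 (SD, n = 2). A count of 0 allowed a share of up to 0.158% in shScr replicate 1 and 0.143% in shScr replicate 2. The 95% Wilson intervals of the shRBM10#1 libraries, 14.7% to 17.9% and 19.5% to 22.9%, did not overlap, nor did those of the shRBM10#2 libraries, 27.8% to 31.2% and 35.9% to 39.4%. These intervals treat every count of the gene as informative, although few fragments tell the isoforms apart. The intervals and floors cover counting error only and not the error of dividing shared fragments between isoforms.

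**Figure D2:**
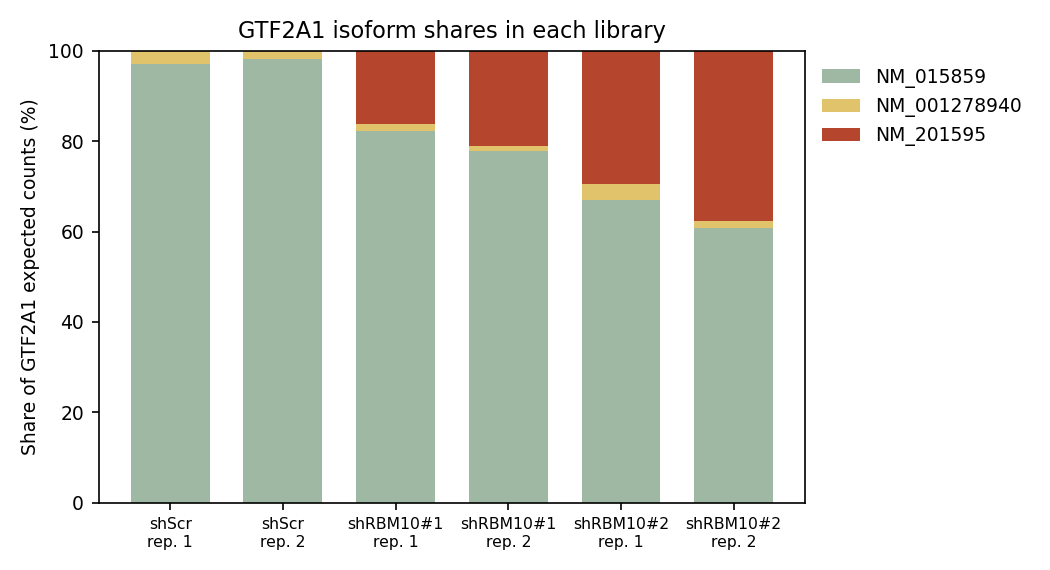
Share of the GTF2A1 expected counts, in percent, taken by each of the 3 isoforms in each of the 6 libraries. NM_201595 (red) is at 0 in both shScr libraries, at 16.3% and 21.2% in shRBM10#1 and at 29.5% and 37.6% in shRBM10#2.

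Only a small part of the fragments could tell the isoforms apart, and few of these would come from the NM_201595 first exon. The fragment numbers given here were worked out from the RSEM counts and the exon lengths, and were not observed. The exons after the first make up 98.6% of NM_201595 and 92.7% of NM_015859. If fragments started evenly along the transcripts, 4.9 and 7.1 fragments would have started in the NM_201595 first exon in shRBM10#1, and 12.0 and 15.9 in shRBM10#2. The matching values for the NM_015859 first exon were 127.5 to 156.7 over the 6 libraries. Fragments that start in the shared exons are divided by the model that RSEM fits, and reads over the junctions were not used here. GC content was 59.5% in the 84-nt exon and 57.1% in the 464-nt exon.

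NM_015859, which begins at the proximal first exon, remained the main isoform in every library. It was at 13.32 and 16.97 TPM in shScr, 12.76 and 11.15 TPM in shRBM10#1, and 12.01 and 10.95 TPM in shRBM10#2. Both control libraries were above all 4 knockdown libraries, while the 2 knockdown conditions overlapped. Its share of counts was 97.7% ± 0.82 (SD, n = 2) in shScr, 80.0% ± 3.1 in shRBM10#1 and 63.9% ± 4.4 in shRBM10#2. RSEM divides the same fragments between NM_015859 and NM_201595, so their levels are not independent. In CPM without the TMM correction, they summed to 56.16 and 62.75 in shScr and to 62.47 and 60.39 in shRBM10#1. In shRBM10#2 they summed to 73.32 and 75.04.

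NM_201595 reached 2.70 and 3.24 TPM in shRBM10#1 and 5.64 and 7.24 TPM in shRBM10#2. For each NM_015859 transcript there were 0.21 and 0.29 of NM_201595 in shRBM10#1, and 0.47 and 0.66 in shRBM10#2. NM_001278940 was at 0.40 and 0.30 TPM in shScr, 0.23 and 0.15 in shRBM10#1, and 0.62 and 0.28 in shRBM10#2. The shRBM10#1 libraries were the lowest, and shScr and shRBM10#2 overlapped.

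**Figure D3:**
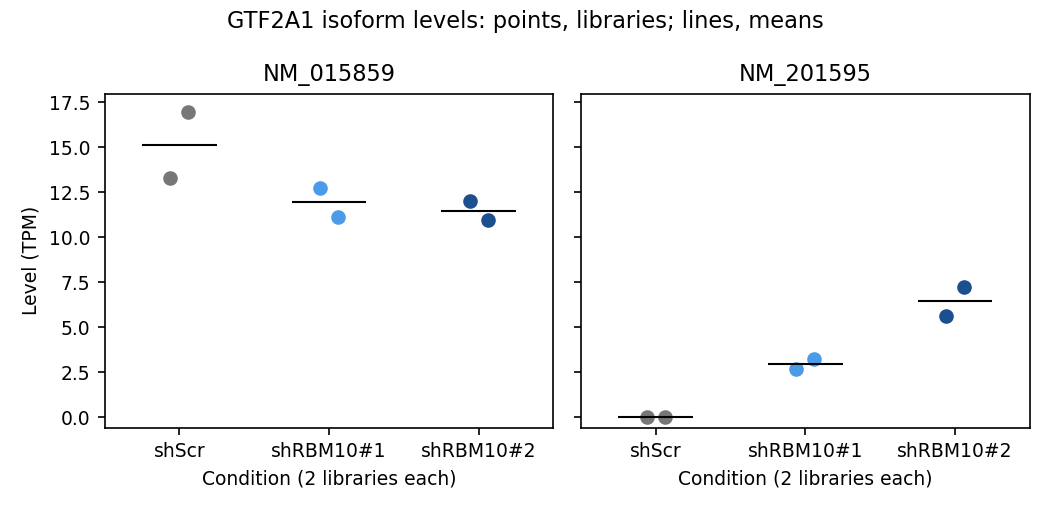
Level of NM_015859 and NM_201595, in TPM, by condition, with 1 point per library and a line at the mean of 2. NM_015859 lies between 10.95 and 16.97 TPM, and NM_201595 rises from 0 in shScr to 5.64 and 7.24 TPM in shRBM10#2.

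The GTF2A1 total was close to the control with shRBM10#1 and above it with shRBM10#2. The gene total was 58.5 and 63.8 CPM in shScr, 64.8 and 62.0 in shRBM10#1, and 74.2 and 74.8 in shRBM10#2. The shRBM10#1 libraries overlapped the controls, and both shRBM10#2 libraries were above the other 4. The fitted total was 1.04-fold that of shScr with shRBM10#1 and 1.22-fold with shRBM10#2, and 1.17-fold as high with shRBM10#2 as with shRBM10#1. In bulk RNA, a change in every cell and a change in the share of cells that carry the transcript cannot be told apart.

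Few isoforms met the pattern that chose NM_201595, and their number is a description and no support for it. Of 14843 isoforms with at least 100 counts in each of the 4 knockdown libraries, 3 had 0 in both shScr libraries, which is 0.0202%. Besides NM_201595 these were NM_172167 of NOXO1, which organises an NADPH oxidase, and NM_015378 of VPS13D, a lipid transfer protein. NOXO1 NM_172167 had 259.0 and 109.67 counts in shRBM10#1 and 308.0 and 302.47 in shRBM10#2. VPS13D NM_015378 had 117.56 and 325.62 in shRBM10#1 and 134.71 and 127.07 in shRBM10#2. Of the 3, NM_201595 had the highest mean over the knockdown libraries. In NM_201595, both shRBM10#2 libraries were above both shRBM10#1 libraries in counts. The same held in CPM without the TMM correction, at 22.41 and 28.7 against 10.33 and 12.92. In NOXO1 NM_172167 this order held in raw counts only. Its 259.0 counts in shRBM10#1 replicate 1 came from a library of 31953729 expected counts. Its 302.47 in shRBM10#2 replicate 2 came from 37557507, so relative to library size the order was not kept. The reverse pattern, at least 100 counts in both shScr libraries and 0 in all 4 knockdown libraries, was met by 2 of 15251 isoforms, NM_001304943 of GPATCH8 and NM_001256647 of NR1H2.

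Of the 3 partner genes, GTF2A2 fell and GTF2B rose with shRBM10#2 against shScr, by less than 1.3-fold each, and TBP passed the test in no comparison. None of the 3 passed with shRBM10#1 against shScr. The totals were tested with edgeR's quasi-likelihood method over 14217 genes. A gene was called at an FDR below 0.05, which was met by 14% of genes with shRBM10#1 and by 25.9% with shRBM10#2, both against shScr. Between the 2 shRNAs 25.5% of genes were called.

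GTF2A2, the gamma chain of TFIIA, lies on the minus strand at chr15:59638062-59657515 and was quantified as 1 isoform, NM_004492. It had 61.4 and 52.5 CPM in shScr, 55.5 and 52.3 in shRBM10#1, and 46.9 and 48.9 in shRBM10#2. The shRBM10#2 libraries were the lowest, and the shRBM10#1 libraries overlapped the controls, which lay far apart. GTF2A2 fell by 0.25 ± 0.082 (SE) on the log2 scale with shRBM10#2 against shScr (edgeR FDR = 0.040), a level 0.84-fold that of the control. Without shScr replicate 1 the difference was -0.13 (edgeR FDR = 0.30), and without either shRBM10#2 library the call was also lost (FDR = 0.26 and 0.16). The difference was -0.08 ± 0.082 with shRBM10#1 against shScr (FDR = 0.56) and -0.17 ± 0.082 with shRBM10#2 against shRBM10#1 (FDR = 0.15).

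GTF2B, which encodes TFIIB, lies on the minus strand at chr1:88852633-88891567 and was quantified as NM_001514 alone. It had 17.1 and 16.3 CPM in shScr, 14.5 and 18.3 in shRBM10#1, and 20.8 and 21.5 in shRBM10#2. Both shRBM10#2 libraries were above the other 4, and the shRBM10#1 libraries lay on either side of the controls. GTF2B rose by 0.34 ± 0.11 (SE) on the log2 scale with shRBM10#2 against shScr (edgeR FDR = 0.031), and by 0.36 ± 0.11 with shRBM10#2 against shRBM10#1 (edgeR FDR = 0.024). With shRBM10#1 against shScr the difference was -0.02 ± 0.11 (FDR = 0.93). Leaving out any 1 library of shScr or shRBM10#2 ended the call against shScr, at differences of 0.31 to 0.38, and so did limma on TPM (FDR = 0.13). The call between the shRNAs was lost without shRBM10#1 replicate 1 (0.21, FDR = 0.14) and without either shRBM10#2 library (FDR = 0.10 and 0.16).

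TBP lies on the plus strand at chr6:170554369-170572859. Its total was 13.4 and 13.98 CPM in shScr, 13.2 and 12.8 in shRBM10#1, and 12.3 and 14.1 in shRBM10#2. The 6 libraries spanned less than 2 CPM, and the shRBM10#2 libraries were the lowest and the highest of them. The log2 differences were -0.08 ± 0.10 (SE) with shRBM10#1 (edgeR FDR = 0.67), -0.05 ± 0.10 with shRBM10#2 (FDR = 0.74), and 0.02 ± 0.10 between the shRNAs (FDR = 0.89).

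TBP has 2 isoforms in the files. NM_003194 held 98.5% of the TBP counts in shScr replicate 1 and 100% in the other 5 libraries. NM_001172085 had an expected count of 6.5 in shScr replicate 1 and 0 elsewhere. It skips the 202-nt second exon at chr6:170556882-170557083, which holds the start codon of NM_003194, and its coding sequence is 957 nt against 1017 nt. The upper 95% Wilson bound of its share was 0.71% to 0.92% in those 5 libraries, and this bound treats every TBP count as informative. Fragments that reach neither the second exon nor the junction that skips it cannot tell the isoforms apart. A use above this bound could therefore also have gone undetected. NM_001172085 was the only one of the 7 member isoforms that did not pass the filter on low counts.

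**Figure D4:**
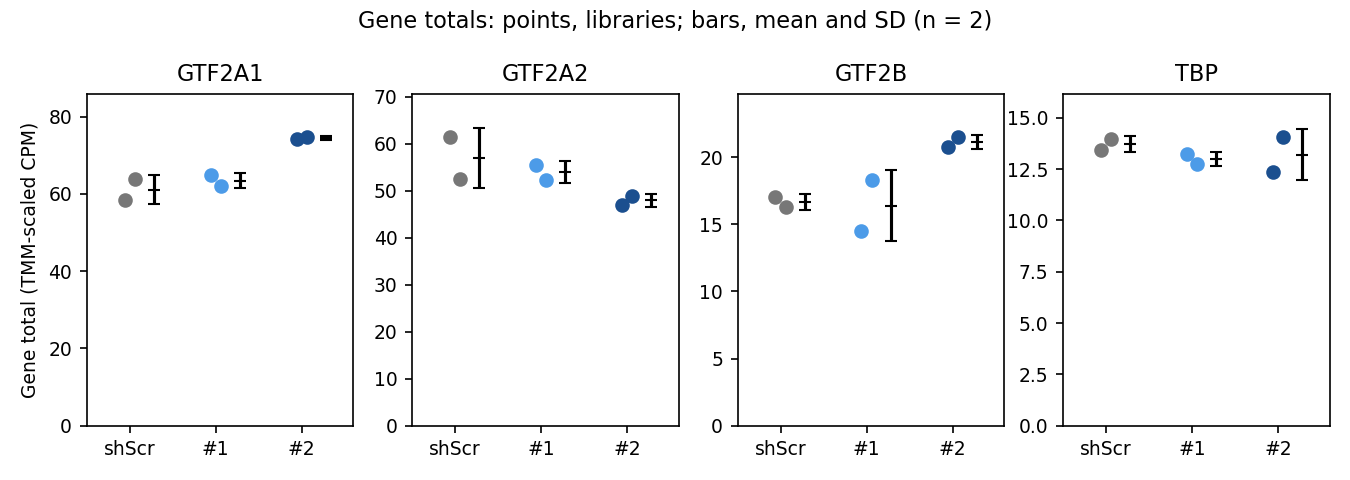
Gene totals of GTF2A1, GTF2A2, GTF2B and TBP in TMM-scaled CPM, with 1 point per library and the mean ± SD of 2 libraries at its right. In GTF2A1 and GTF2B both shRBM10#2 points are above all others, in GTF2A2 they are the lowest, and in TBP the conditions overlap.

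The isoforms NM_004492, NM_001514 and NM_003194 of the 3 partner genes, tested among 26464 isoforms, were not called in any of the 4 comparisons. The first 2 hold the same counts as their genes, and NM_003194 holds nearly all of those of TBP. With shRBM10#2 against shScr the edgeR FDR was 0.21 for NM_004492 of GTF2A2 (unadjusted p = 0.041) and 0.22 for NM_001514 of GTF2B (unadjusted p = 0.043), with fold changes close to those of the gene totals. Between the shRNAs NM_001514 had an FDR of 0.20 (edgeR, unadjusted p = 0.035). Few isoforms were called in that fit: 0.0302% with shRBM10#1 and 2.26% with shRBM10#2, both against shScr, 2.25% between the shRNAs, and 0% with both shRNAs pooled, where 2875 isoforms had an unadjusted p below 0.05.

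With both shRNAs pooled against shScr, none of the 3 genes was called by edgeR, among 1.62% of all genes. The log2 differences were -0.16 ± 0.10 (SE) for GTF2A2 (FDR = 0.44), 0.17 ± 0.15 for GTF2B (FDR = 0.60) and -0.06 ± 0.10 for TBP (FDR = 0.79), and none of the 3 had an unadjusted p below 0.05 or was called by DESeq2. RBM10 itself, at -0.99 ± 0.31 (FDR = 0.15), did not pass in this fit, which treats the 4 knockdown libraries as 1 group.

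Per length, GTF2A2 was the most abundant of the 4 genes and TBP the least. GTF2A2 ranged from 52.5 to 67.1 TPM over the 6 libraries, GTF2B from 15.4 to 22.8, GTF2A1 from 13.7 to 18.5 and TBP from 11.0 to 13.8. GTF2B and GTF2A1 overlapped in level, and GTF2A2 was above all others in every library. TBPL1, a paralog of TBP that does not bind the TATA box, was at 14.3 to 18.9 TPM, above TBP in each of the 6 libraries. The germ cell paralogs GTF2A1L and TBPL2 were listed at 0 in all 6.

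RefSeq gives GTF2A1 a start site at 81221390, upstream of the 84-nt exon, and another at 81220959, just before the proximal first exon. The 150 bases before each are shown, on the minus strand of GRCh38, with the 150 bases before the start of GTF2B at 88891567. The 84-nt exon begins at 81221231, so the distal stretch does not lie directly before it, and the bases that do are not shown. Capitals mark matches to TATAAA (the TATA box), CCAAT (the CCAAT box), GGGCGG (a GC box), CACGTG (an E-box) or CGGAAG (an ETS core) on either strand.
GTF2A1 distal, chr14:81221391-81221540: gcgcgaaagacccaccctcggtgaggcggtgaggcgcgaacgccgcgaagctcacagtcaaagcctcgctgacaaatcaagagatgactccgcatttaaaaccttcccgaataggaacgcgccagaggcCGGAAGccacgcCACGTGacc
GTF2A1 proximal, chr14:81220960-81221109: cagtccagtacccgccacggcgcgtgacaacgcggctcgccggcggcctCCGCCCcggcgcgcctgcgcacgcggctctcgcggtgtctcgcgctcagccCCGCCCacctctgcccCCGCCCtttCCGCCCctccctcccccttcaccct
GTF2B, chr1:88891568-88891717: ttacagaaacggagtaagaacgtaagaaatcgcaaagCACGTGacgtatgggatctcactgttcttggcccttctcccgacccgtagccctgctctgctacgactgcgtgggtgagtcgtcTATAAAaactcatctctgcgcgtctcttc

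Both GTF2A1 windows held some of these letters. The proximal 150 bases were 78.0% G and C with 4 matches to GGGCGG, and the distal 150 bases were 60.7% G and C with 1 match to CGGAAG, 1 to CACGTG and none to GGGCGG. GTF2B was the only one of the 4 genes with TATAAA in its RefSeq windows, 29 bases before its start. Among 35116 RefSeq windows of 300 bases, from 250 before to 50 after a start, TATAAA was in 11.5%, CCAAT in 34.6%, GGGCGG in 45.0%, CACGTG in 7.3% and CGGAAG in 19.5%. In these longer windows the proximal start of GTF2A1 also held the E-box and the ETS core, and the distal start held no GC box. A match is a stretch of letters and not a measured binding site.

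The rest of the transcription machinery was followed in a list of 55 genes of TFIID, TFIIE, TFIIF, TFIIH, RNA polymerase II, the paralogs of the 4 genes, regulators of TBP and TFIIA, and other TBP complexes. Of these, 53 passed the filter, and GTF2A1L and TBPL2 did not. With shRBM10#1 against shScr, 0 rose and 1 fell, while 7.13% of all genes rose and 6.91% fell. By edgeR 10 of the 53 had an unadjusted p below 0.05, as had 4056 of all genes. With shRBM10#2 against shScr, 9 rose and 6 fell, or 28.3% of the list in all, while 12% of all genes rose and 13.9% fell. Between the shRNAs, 10 were higher and 9 lower with shRBM10#2, while 11% of all genes were higher and 14.5% lower. The list medians were -0.0021 (shRBM10#1), 0.03 (shRBM10#2) and 0.04 (between the shRNAs) on the log2 scale, against medians of 0.01 over all genes in each. The count with shRBM10#2 against shScr was 8 without shScr replicate 2, 23 without either shRBM10#1 library, 2 without shRBM10#2 replicate 1 and 3 without shRBM10#2 replicate 2. The calls over all genes moved the same way, from 3685 with all libraries to 2390, 4553 or 4566, 1222 and 954. That between the shRNAs was 11 without shRBM10#1 replicate 1, 3 without shRBM10#2 replicate 1 and 1 without shRBM10#2 replicate 2, where calls over all genes went from 3628 to 3255, 1157 and 918. With both shRNAs pooled none was called by edgeR, 4 had an unadjusted p below 0.05, and DESeq2 called 1. Over all 14217 genes edgeR gave 2450 with an unadjusted p below 0.05, and DESeq2 called 718.

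Among the regulators of TFIIA and TBP, TASP1, which encodes the protease that cuts the GTF2A1 product, had 12.5 and 14.1 CPM in shScr, 13.5 and 14.7 in shRBM10#1, and 16.2 and 17.2 in shRBM10#2. It rose by 0.33 ± 0.10 (SE) on the log2 scale with shRBM10#2 against shScr (edgeR FDR = 0.028), and neither DESeq2 (FDR = 0.057) nor limma on TPM (FDR = 0.22 and 0.23 with pseudocounts of 0.1 and 0.5) called it. The call was also lost without shScr replicate 1 (FDR = 0.17) or either shRBM10#2 library (FDR = 0.11 and 0.21). With shRBM10#1 the difference was 0.09 ± 0.10 (FDR = 0.61). DRAP1, the alpha chain of NC2, had 203.2 and 198.4 CPM in shScr, 182.8 and 174.6 in shRBM10#1, and 147.1 and 141.3 in shRBM10#2. The 3 conditions did not overlap, and DRAP1 fell by 0.48 ± 0.062 on the log2 scale with shRBM10#2 against shScr (edgeR FDR = 0.00040). Its partner DR1, the beta chain of NC2, was at -0.18 ± 0.070 (FDR = 0.083), and BTAF1 at 0.17 ± 0.071 (FDR = 0.10), in the same comparison. With shRBM10#1 against shScr the differences were -0.17 ± 0.062 for DRAP1 (FDR = 0.093), -0.04 ± 0.070 for DR1 (FDR = 0.74) and -0.0026 ± 0.071 for BTAF1 (FDR = 0.99). TBPL1 was at -0.09 ± 0.11 with shRBM10#1 (FDR = 0.60) and 0.18 ± 0.10 with shRBM10#2 (FDR = 0.23).

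POLR2A, the largest subunit of RNA polymerase II, fell with each shRNA. It had 242.5 and 238.0 CPM in shScr, 210.0 and 179.0 in shRBM10#1, and 161.1 and 149.6 in shRBM10#2, with no overlap between conditions. It fell by 0.31 ± 0.078 (SE) on the log2 scale with shRBM10#1 (edgeR FDR = 0.021) and by 0.63 ± 0.078 with shRBM10#2 (edgeR FDR = 0.00030). Without either shScr library, or without shRBM10#1 replicate 2, the call with shRBM10#1 was lost (FDR = 0.084 to 0.12). In the same group the small shared subunit POLR2L rose by 0.34 ± 0.11 with shRBM10#2 (edgeR FDR = 0.040). Its control libraries stood at 61.8 and 46.1 CPM, and without shScr replicate 2 the difference was 0.14 (FDR = 0.31). Without shRBM10#2 replicate 1 or 2 the call was lost as well (FDR = 0.11 and 0.21), and so it was by limma on TPM (FDR = 0.058 and 0.059).

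The chains of TFIIF moved apart with shRBM10#2. GTF2F1, the large chain, had 97.3 and 96.9 CPM in shScr, 103.0 and 100.1 in shRBM10#1, and 79.1 and 78.9 in shRBM10#2. GTF2F2, the small chain, had 35.9 and 34.0 CPM in shScr, 36.1 and 34.4 in shRBM10#1, and 44.6 in both shRBM10#2 libraries. Against shScr, GTF2F1 fell by 0.30 ± 0.062 (SE) on the log2 scale (edgeR FDR = 0.0046) and GTF2F2 rose by 0.35 ± 0.071 (edgeR FDR = 0.0039). The GTF2F2 call was lost without either shRBM10#2 library (FDR = 0.050 and 0.057). Whether the GTF2F1 call against shScr held without single libraries was not examined. Neither chain was called with shRBM10#1 (FDR = 0.53 and 0.94).

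Of the 15 subunits of TFIID besides TBP, 0 rose and 1 fell with shRBM10#2 against shScr, beside the 12% and 13.9% of all genes that did. Between the shRNAs, TAF12 was 0.45 ± 0.10 (SE) higher on the log2 scale with shRBM10#2 (edgeR FDR = 0.0085), and TAF9 0.35 ± 0.073 higher (edgeR FDR = 0.0047). TAF9 shares its locus with AK6, so its counts may be divided between the 2 genes. Both calls were lost without shRBM10#2 replicate 2 (FDR = 0.16 for TAF12 and 0.058 for TAF9), and that of TAF9 without shRBM10#2 replicate 1 too (FDR = 0.056). In the TBP complex of RNA polymerase I, TAF1D rose by 0.63 ± 0.14 with shRBM10#2 against shScr (edgeR FDR = 0.0063) and TAF1B by 0.29 ± 0.081 (edgeR FDR = 0.021). Whether this TAF1B call held without single libraries was not examined. TAF1D had 14.3 and 10.1 CPM in shScr and 19.3 and 18.4 in shRBM10#2, and without shScr replicate 2 its difference was 0.40 (FDR = 0.055). Without shRBM10#2 replicate 1 it was 0.59 (FDR = 0.051).

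**Figure D5:**
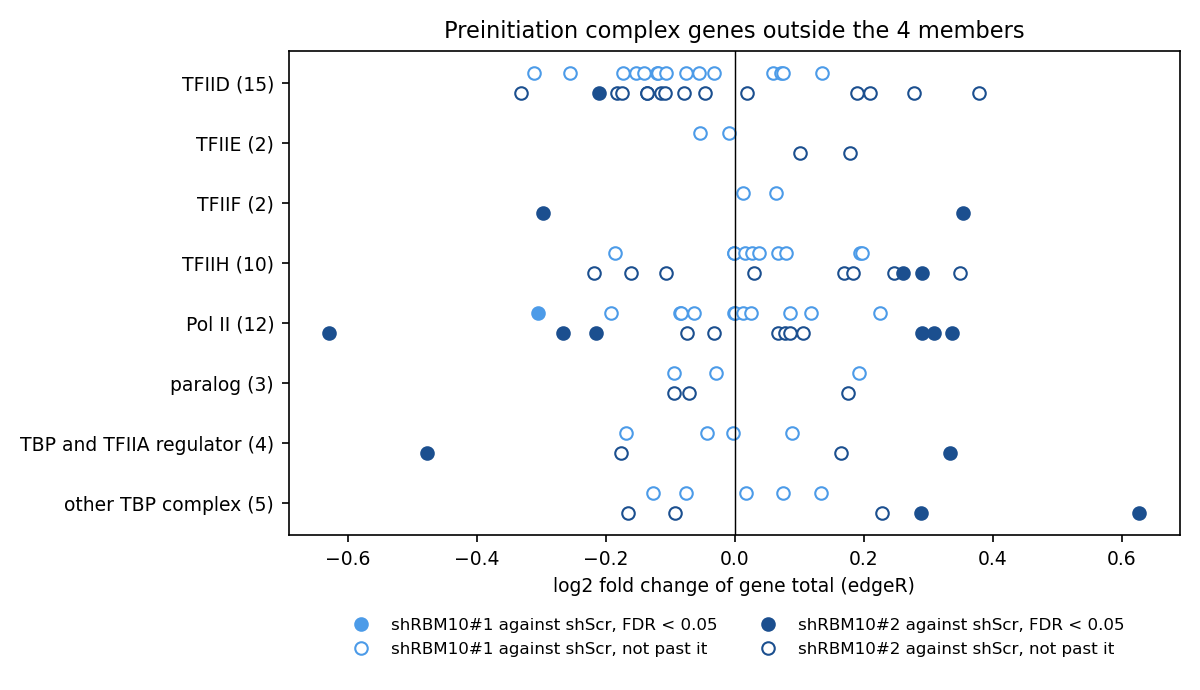
Log2 fold change of gene totals for the 53 tested genes of the transcription machinery, by group with the number of genes in parentheses, with shRBM10#1 (light) and shRBM10#2 (dark) against the same shScr libraries. Filled points passed an FDR of 0.05: 1 with shRBM10#1, and 9 higher and 6 lower with shRBM10#2.

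The genes whose log2 CPM over the 6 libraries were most like each member, out of all tested genes, were named by the highest Pearson r. For GTF2A1 these included ARPP19 and SCAI (r = 0.995 for each), and for GTF2A2 they were DCAF5, SHMT2 and PSMA7 (r = 0.991, 0.990 and 0.985). GTF2B was most like ANAPC10, LOC103021295 and HSD17B1 (r = 0.998, 0.998 and 0.994). TBP was most like HOXD8, PLIN2 and BEX2 (r = 0.989, 0.986 and 0.965), all of which stayed below 1.3 CPM. With 6 points and this many genes, values near 1 arise from the choice of the highest.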

How the data were processed

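PC-9 RNA-seq libraries were deposited as 1 isoform table each, with 2 per condition. Per the labels, the authors used STAR 2.4 and RSEM 1.2.29 on hg19. The deposited values were expected counts, TPM, FPKM, percent of the gene's isoforms and effective length. Strand was not given in the sources used here. The study's methods call the control parental cells and the labels shScr, and the labels were used. Expected counts were summed by gene name, rounded, filtered (filterByExpr, 14217 genes), scaled by TMM and tested in edgeR 4.0.16 by quasi-likelihood with Benjamini-Hochberg FDR. The 3 conditions shared 1 fit, and the pooled comparison was a fit of 2 groups. Isoforms were tested likewise. No test of isoform usage could be run, as GTF2A2 and GTF2B have 1 isoform and TBP's other isoform failed the filter. Fits were tested on simulated data with 200 genes changed by 2 on the log2 scale, of which 93.5% to 95.5% were recovered. Changes as small as those of the tested genes here were not simulated. Members, gene lists and rules were chosen with earlier results of these data known. Genes were named by rule: all member isoforms, RBM10, TASP1, DR1, DRAP1, BTAF1, GTF2A1L, TBPL1, TBPL2, the 6 list genes called with the largest change per comparison (shRNAs not pooled), the 3 genes most like each member, and isoforms at 0 in shScr and at least 100 counts in each knockdown library. One gene that this rule names beside GTF2A1 is not reported here.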

Additional observations from a re-analysis of the deposited data

Results flagged for a closer look

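The effects of the 2 shRNAs differed for GTF2B, by the test of shRBM10#2 against shRBM10#1 itself: 0.36 on the log2 scale (edgeR FDR = 0.024), with the shRBM10#1 libraries at 14.5 and 18.3 CPM and the shRBM10#2 libraries at 20.8 and 21.5. The same test passed for TAF12 (0.45), TAF1D (0.49), POLR2L (0.42), TAF1B (0.37), TAF9 (0.35) and GTF2F2 (0.34), which were higher with shRBM10#2. It also passed for GTF2F1 (-0.36), POLR2A (-0.32) and DRAP1 (-0.31), which were lower. Leaving out 1 shRBM10#2 library ended the calls of TAF12, TAF1D, POLR2L, TAF1B and TAF9 (edgeR FDR = 0.056 to 0.16), and that of GTF2B (FDR = 0.10 and 0.16), but not that of GTF2F1. Whether the calls of GTF2F2, POLR2A and DRAP1 held in this comparison without single libraries was not examined. By limma on TPM, TAF1B was not called (FDR = 0.060 and 0.066 with pseudocounts of 0.1 and 0.5). The part of the deeper RBM10 knockdown with shRBM10#2 in these differences was not tested.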

How the results depend on the processing

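The calls for GTF2A2 and GTF2B with shRBM10#2 against shScr kept their direction under every alternative run, and each was lost when single libraries were left out; TBP was called under none. Without 1 library, the log2 difference ranged from -0.19 to 0.038 for GTF2A2 with shRBM10#1, from -0.20 to 0.13 for GTF2B with shRBM10#1, from -0.36 to -0.13 for GTF2A2 with shRBM10#2, from 0.31 to 0.38 for GTF2B with shRBM10#2, from -0.15 to 0.038 for TBP with shRBM10#2, all against shScr, and between the shRNAs from 0.21 to 0.54 for GTF2B and from -0.068 to 0.11 for TBP. BTAF1 with shRBM10#1 ranged from -0.041 to 0.039. The number of machinery genes called ranged from 0 to 1 with shRBM10#1, from 2 to 23 with shRBM10#2, from 1 to 19 between the shRNAs and from 0 to 1 with the shRNAs pooled. By limma on log2(TPM + 0.5) and on log2(TPM + 0.1), GTF2B with shRBM10#2 was at 0.29 in both (FDR = 0.13 in both) and TASP1 with shRBM10#1 at -0.0024 and -0.0020. GTF2B between the shRNAs was at 0.40 (FDR = 0.051) with the larger pseudocount. The machinery genes called were then 6 and 7 with shRBM10#2, and 9 in both between the shRNAs. Without a filter, 2 were called with shRBM10#1. With an absolute log2 change above 1 also required, 0 were called in each comparison. With the shRNAs pooled, DESeq2 called 1 and a coefficient per condition 5. The causes were not tested. Replicate numbers are shared by the conditions, but the deviations of same-numbered libraries correlated at -0.019 to -0.0038, so the numbers do not pair them. The replicate block gave 12 machinery genes with shRBM10#2 and 16 between the shRNAs, and -0.25 for GTF2A2 (FDR = 0.049) and 0.34 for GTF2B (FDR = 0.034) with shRBM10#2 against shScr. The mean NM_201595 share moved by less than 1 SD with TPM or the deposited percent. Both rest on the same RSEM division of fragments between isoforms, which was not varied. No alternative was run for isoform usage, which had no test. The depth limit is the few fragments that can start in the NM_201595 first exon.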
